A study of Mus musculus with 18 samples.

Results

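The class II antigen presentation genes were followed through back skin of transgenic and wild-type mice. The set was defined by gene symbol and holds 10 of the 55357 genes in the deposited table: H2-Aa, H2-Ab1, H2-Eb1, Cd74, Ciita, H2-DMa, H2-DMb1, H2-DMb2, H2-Oa and H2-Ob. Bulk RNA was sequenced from 6 C-IKKα mice, which express exogenous IKKα in the cytoplasm of keratinocytes, from 6 N-IKKα mice, which express it in keratinocyte nuclei, and from 6 WT mice. All 18 mice were of the FVB strain and 6 months old, and each gave 1 library. The labels name neither the promoter that drives each transgene nor the number of founder lines. IKKα, a subunit of the IkB kinase complex, also has roles in the differentiation of keratinocytes. The study compared the consequences of placing it in either compartment.

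MHC class II molecules present peptides from endosomes and lysosomes to CD4+ T cells. An alpha and a beta chain pair in the endoplasmic reticulum with the invariant chain, Cd74, which blocks the peptide groove until H2-DM exchanges its remnant for a peptide, and H2-O restrains H2-DM. Ciita, the class II transactivator, is recruited to the promoters of these genes by factors bound to short conserved boxes, and interferon gamma induces it. In skin the best-known class II-positive cells are Langerhans cells of the epidermis and dendritic cells of the dermis, and keratinocytes can be induced to express class II.

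Libraries held between 11.1 and 15.7 M counted reads (megareads), with 12.645 to 15.7 in C-IKKα, 12.0 to 14.6 in N-IKKα and 11.1 to 12.629 in WT. Every C-IKKα library was thus deeper than every WT library, whereas the N-IKKα range overlapped both, and the part of depth in the results was not tested. The libraries fell apart by hair state, which the labels do not give. The mean log2 value of 29 hair shaft and root sheath genes was 9.79 to 11.9 in 6 libraries and 2.10 to 5.12 in the other 12, and a limit of 8 separates them. The 6 libraries high in these genes, called hair-high here, were C-IKKα 14, N-IKKα 8, 9 and 11, and WT 1 and 4. All 6 hair-high libraries read as female by the Y-linked gene Ddx3y (at most 500 normalized counts), whereas 8 of the 12 hair-low libraries read as male. As the hair state is read from the libraries and not from the labels, differences between hair states are given as descriptions without a test. Values are normalized counts, that is, gene counts that the authors divided by 1 size factor per library. In bulk skin, fewer cells of a type and less RNA per cell cannot be told apart.

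Per kilobase, Cd74 was the most abundant class II transcript and Ciita the least abundant of those detected. Per kilobase of annotated exon, the median level over the 12 hair-low libraries was 3210 normalized counts for Cd74, with a range of 1888 to 4864 that overlapped no other member. H2-Aa and H2-Ab1, the alpha and beta chains of the I-A molecule, followed at 726 (533 to 1125) and 724 (462 to 1242) normalized counts per kilobase, and their ranges overlapped almost entirely. Their levels did not differ beyond the spread over libraries on this scale. The order depends on the length used, which is all annotated exon bases of a gene. For H2-Ab1 that is 2568 bases, whereas its longest annotated transcript has 1212. Without division by length, H2-Eb1 lay below Ciita in every library.

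The peptide-loading genes were lower. H2-DMb1 and H2-DMa, which encode a beta and the alpha chain of H2-DM, had medians of 136 (106 to 192) and 91.1 (80.5 to 138) normalized counts per kilobase. H2-DMb2, the second beta chain gene, had 71.9 (45.7 to 88.4), H2-Ob, the beta chain of H2-O, 65.5 (38.2 to 82.8), and H2-Eb1, the beta chain of the I-E molecule, 60.1 (34.7 to 86.1). Each neighbour in this order overlapped the next, but the range of H2-DMb1 lay wholly above those of H2-DMb2, H2-Ob and H2-Eb1. Within each library H2-DMb1 also lay above H2-DMa per kilobase, although their ranges overlapped. Without division by length the ratio of H2-DMa to H2-DMb1 was 1.07 to 1.96, with exon lengths of 3.448 and 1.681 kb. Ciita, at 19.0 (12.1 to 29.9), lay below all of them. H2-Eb1 was about an order of magnitude below H2-Ab1 per kilobase, although both encode classical beta chains. H2-Ea, the gene of the I-E alpha chain and not a member, had 305 (183 to 437) normalized counts per kilobase. The annotation used for exon lengths lists it as a polymorphic pseudogene. Whether these mice make an I-E protein was not tested. The reference genome comes from C57BL/6 mice, whose haplotype at this locus differs from that of FVB mice, and the part of that mismatch in the levels was not tested.

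H2-Oa, the alpha chain of H2-O, was listed at 0 in all 18 libraries. The limit that a count of 0 allows, 3 counts, lies between 2.45 and 3.61 normalized counts over the libraries and covers counting error only. Its partner H2-Ob had between 78.3 and 446 normalized counts. In the GENCODE annotation of the earlier mouse build, 22.8% of the exon length of H2-Oa is overlapped by exons of BC051537 on the opposite strand. Such overlap goes with listed zeros in this table: of 47 protein-coding genes with at least 95% overlap, 93.6% were at 0 in every library, against 20.6% of 16603 genes with none. The overlap of H2-Oa is well under that limit, as are those of H2-DMa (10.4%, by Brd2) and Ciita (3.45%, by Dexi). The latter 2 genes were detected in every library. The part of gene overlap in the zeros of H2-Oa was not tested. The further results concern the other 9 genes, here called the detected members. They passed the filter of at least 10 normalized counts in at least 6 libraries, and each had at least 22.8 in every library.

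H2-DMb1 and H2-DMb2 are close copies. Their transcripts were 94.6% identical over 1219 aligned bases, and 4.71% of the 150-base windows of H2-DMb1 and 4.14% of those of H2-DMb2 were shared exactly. Counts of either may therefore include reads of the other. No exact window of that length was shared by any other pair among the members and H2-Eb2.

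The 9 detected members were lower in hair-high than in hair-low skin, in each genotype. Over all 18 libraries, the median difference of mean log2 values, hair-high minus hair-low, was -1.50 over the 9 detected members and -0.01 over all 17667 genes tested. All 9 detected members were at least 2-fold lower in hair-high libraries, as were 9.01% of all genes tested. For 5 of 9 members every hair-high library lay below every hair-low library, against 5.25% of all genes. The exceptions came from C-IKKα 14, which had the highest value of the hair-high libraries for all 9. Without it the count was 9 of 9, against 9.16% of all genes, and the median difference was -1.70. The choice to leave out C-IKKα 14 was made after its values were seen.

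**Figure D1:**
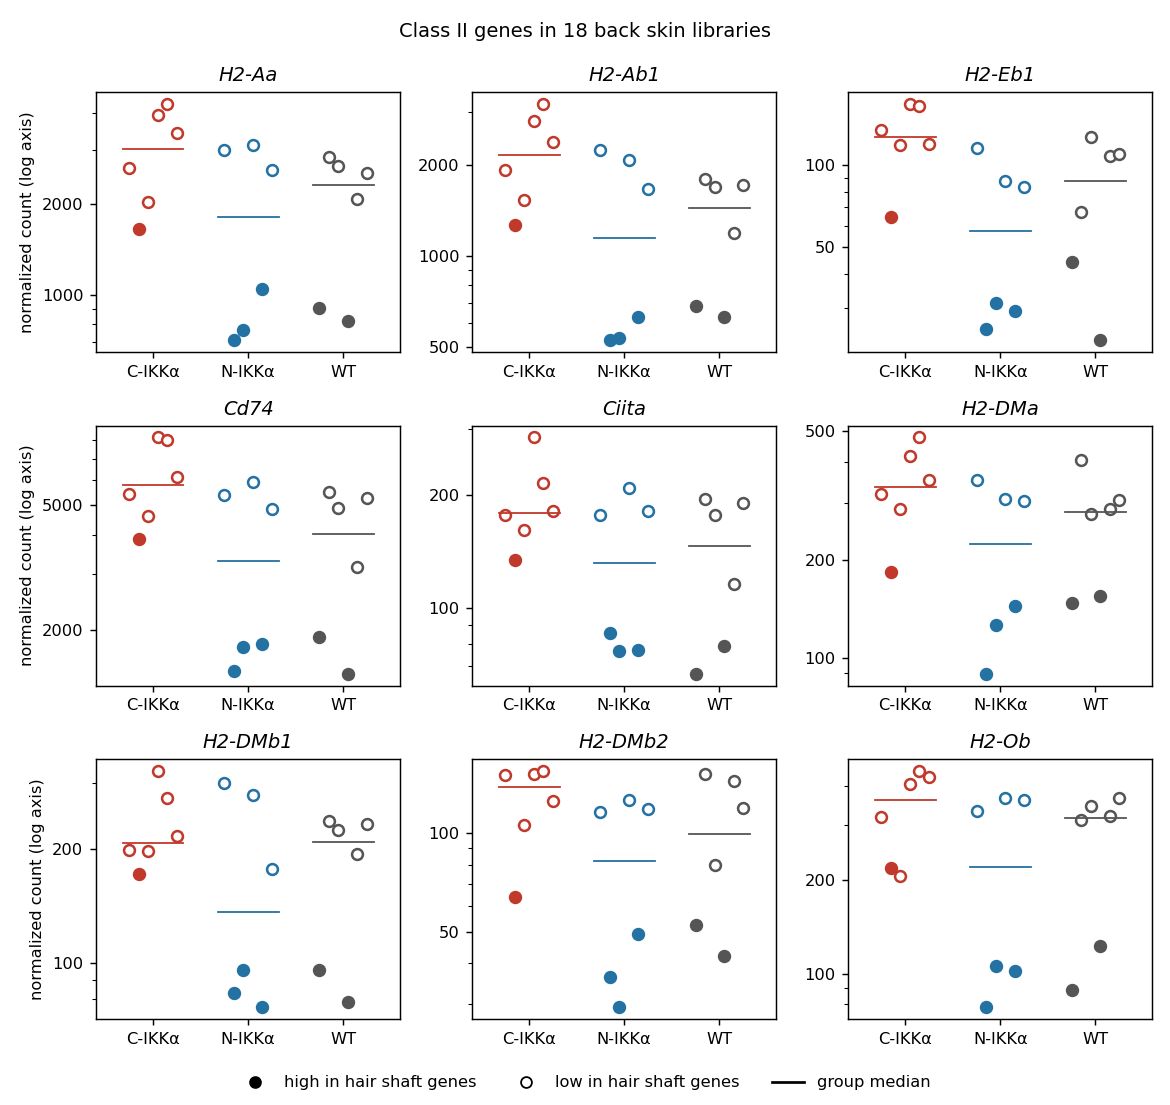
Normalized counts of the 9 detected class II genes in each library, on log axes, with C-IKKα left, N-IKKα in the middle and WT right; filled points are the 6 libraries high in hair shaft genes, open points the other 12, and lines the group medians. The filled points lie at the bottom of each genotype group, except that 1 open C-IKKα point of H2-Ob (206) lies below the filled one (219).

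Cd74, the invariant chain, had 3895 normalized counts in hair-high C-IKKα 14, 1481, 1758 and 1807 in the hair-high N-IKKα libraries and 1902 and 1449.8 in the hair-high WT libraries. In hair-low skin it had 5399, 4587, 8167, 8033 and 6122 in C-IKKα, 5382, 5916 and 4832 in N-IKKα, and 5461, 4879, 3169 and 5251 in WT. Within each genotype the hair states did not overlap, and across genotypes only C-IKKα 14 exceeded a hair-low library, WT 5. Cd74 was 2.83-fold lower in hair-high libraries over all genotypes.

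The chains of I-A followed the same pattern. H2-Aa had 1649.8 normalized counts in C-IKKα 14, 709, 768 and 1049 in hair-high N-IKKα and 909 and 821 in hair-high WT libraries, against 2026 to 4274 in the 12 hair-low libraries. H2-Ab1 had 1267 in C-IKKα 14, 525, 534 and 625 in hair-high N-IKKα and 682 and 629 in hair-high WT libraries, against 1186 to 3188 in hair-low libraries. The hair states were separate for H2-Aa and met for H2-Ab1 only in C-IKKα 14 and WT 5. The differences came to 3.03-fold for H2-Aa and 2.88-fold for H2-Ab1, lower in hair-high skin.

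H2-Eb1 showed the largest difference of the members over all libraries, 3.27-fold. Within N-IKKα and within WT the log2 difference of H2-Ob was larger (-1.88 against -1.69, and -1.67 against -1.62). H2-Eb1 had 64.5 normalized counts in C-IKKα 14, 25.2, 31.2 and 29.2 in hair-high N-IKKα and 44.4 and 22.8 in hair-high WT libraries, against 67.5 to 167 in hair-low libraries. No hair-high library reached a hair-low one, although WT 2, at 67.5, came close to C-IKKα 14. The transcript of H2-Ea, annotated as a polymorphic pseudogene, was 3.06-fold lower, with 58.7 to 168 normalized counts in hair-high and 189 to 453 in hair-low libraries.

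Ciita, the transactivator, showed the smallest difference of the members over all libraries, 2.18-fold. It had 134 normalized counts in C-IKKα 14, 85.7, 76.6 and 77.2 in hair-high N-IKKα and 66.5 and 78.8 in hair-high WT libraries, against 116 to 285 in hair-low libraries. Again C-IKKα 14 lay above WT 5 and below every other hair-low library.

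The peptide-loading and editing genes were lower as well. H2-DMa had 89.5 to 184 normalized counts in hair-high and 278 to 476 in hair-low libraries, a 2.42-fold difference with a clear gap between the states. H2-DMb1 (76.2 to 172 against 177 to 322) and H2-DMb2 (29.3 to 63.6 against 79.8 to 154) were also separate, and were 2.42-fold and 2.82-fold lower in hair-high libraries. H2-Ob was 3.04-fold lower, with 78.3 to 219 in hair-high and 206 to 446 in hair-low libraries. Its states overlapped in C-IKKα 14 and C-IKKα 15.

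Within genotypes, the median difference over the 9 members was -0.85 in C-IKKα, where C-IKKα 14 stood against 5 libraries, -1.68 in N-IKKα, with 3 libraries in each state, and -1.34 in WT, with 2 against 4. The hair states did not overlap for 9 of 9 members in N-IKKα or WT, and for 8 of 9 in C-IKKα, where H2-Ob was the exception. In C-IKKα that means only that C-IKKα 14 was the lowest of its group. Groups this small separate easily, and the share of all genes that did so within a genotype was not taken. Differences at least as low as the member median were found for 5.89% of all genes in C-IKKα, 3.38% in N-IKKα and 6.07% in WT. Because all hair-high libraries read as female, the contrast was also taken among the 10 female libraries, a choice made after the values were seen. The 6 hair-high libraries were then set against N-IKKα 10, C-IKKα 18 and WT 2 and 5. The median difference was -1.41, and 6 of 9 members did not overlap, against 9.65% of all genes.

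**Figure D2:**
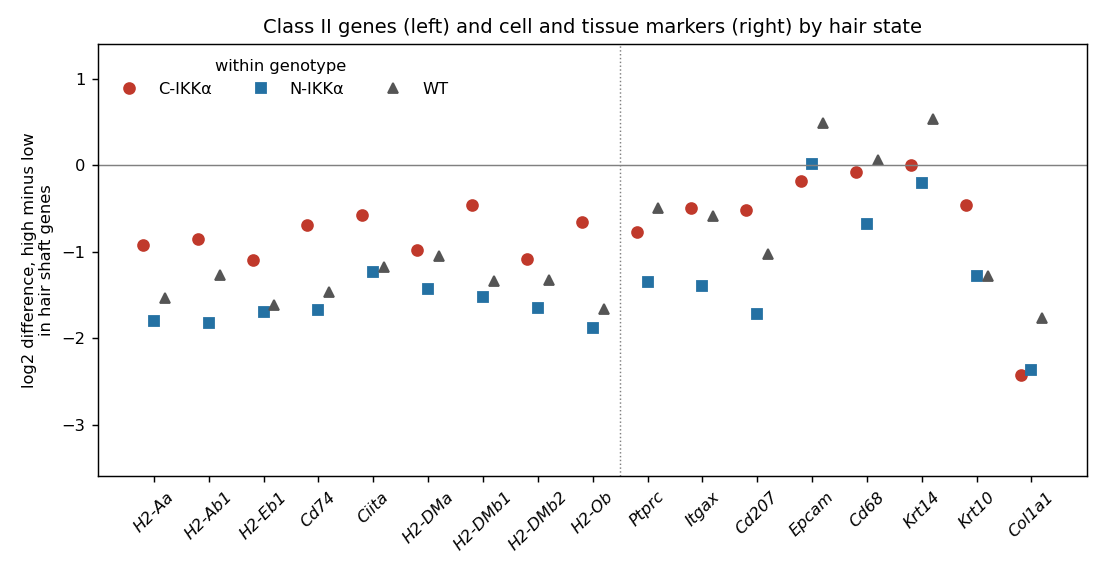
Difference in mean log2 level, high minus low in hair shaft genes, within C-IKKα (circles, 1 against 5 libraries), N-IKKα (squares, 3 against 3) and WT (triangles, 2 against 4), for 9 class II genes left of the dotted line and 8 cell and tissue markers right of it. All class II points lie below 0, the N-IKKα ones between -1.23 and -1.88, while Epcam and Krt14 lie on either side of 0, with WT points at 0.49 and 0.53, and Col1a1 lies at -1.76 in WT and lower in C-IKKα and N-IKKα, a difference that turns to 0.31 over the female libraries alone.

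Markers of leukocytes moved with the class II genes, and their part in the result was not tested. The summed level of 4 pan-leukocyte markers (Ptprc, Itgb2, Laptm5 and Coro1a) was 770 to 1996 normalized counts in hair-high and 1700 to 2836 in hair-low libraries, and 4 of 4 were lower, with a median of -0.97. Of 9 dendritic cell markers, 8 were lower (median -1.10), with sums of 1101 to 1558 in hair-high and 1432 to 2386 in hair-low libraries. All 7 tested T cell markers were lower (median -1.20), and their sums of 237 to 347 in hair-high and 575 to 743 in hair-low libraries did not overlap. All 10 macrophage and monocyte markers were lower (median -0.64), with sums of 4561 to 17920 and 8946 to 18234 that overlapped widely. The 9 class II members had a lower median, -1.50, than any of these lists, but single markers reached their range of -1.71 (H2-Eb1) to -1.13 (Ciita). T cell markers ran from -2.54 (Cd8a, at most 40.2 normalized counts) to -0.47 (Lck). Dendritic cell markers ran from -1.66 (Xcr1) to 0.02 (Dpp4), and macrophage and monocyte markers from -1.51 (Adgre1) to -0.29 (Cd68). A drop of this size was thus not particular to the class II genes.

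Langerhans cell markers were mixed. Cd207, which encodes the lectin langerin, had 93.7 to 265 normalized counts in hair-high and 255 to 451 in hair-low libraries. Which cells its reads came from was not tested. Epcam and Mfge8, which keratinocytes of the hair follicle and other cells express too, were not lower over all libraries, at log2 differences of 0.14 and 0.16. B cell markers were near the detection limit, with sums of 7.57 to 26.9 in hair-high and 12.4 to 42.2 in hair-low libraries and Ms4a1 listed at 0 in all 18. Tchh, of the hair shaft and root sheath list, was also listed at 0 in all 18, so a listed 0 need not mean absence. Tissue markers also moved. Krt10, a keratin of differentiating epidermis, was 2.21-fold lower in hair-high libraries, and 2.07-fold lower among the female libraries alone. Krt14, the basal keratin, was 1.02 times its hair-low level over all libraries, but in WT both hair-high libraries exceeded all hair-low ones for Krt14 and for Epcam, at 1.44 and 1.41 times the hair-low level.

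Col1a1, a dermal collagen, was 4.51-fold lower in hair-high libraries over all, and this difference followed the sex read from the libraries. It had 60486 to 141189 normalized counts in the 8 male hair-low libraries, against 4461 to 11833 in the 4 female hair-low and 4708 to 14708 in the 6 hair-high libraries, all female. Among the female libraries it was 1.24 times its hair-low level in hair-high libraries, so the direction turned.

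H2-Aa, H2-Ab1 and Cd74 kept their proportions to one another more closely than the other member pairs. The ratio of H2-Aa to H2-Ab1 ran from 1.30 to 1.75 over the 18 libraries, a 1.34-fold range, while H2-Aa itself ranged 6.02-fold and H2-Ab1 6.07-fold. The ratio of H2-Ab1 to Cd74 stayed within a 1.43-fold range and that of H2-Aa to Cd74 within 1.55-fold. H2-Eb1 followed less tightly: the ratio of H2-Ab1 to H2-Eb1 ran from 10.9 to 26.4. The widest range of a member pair was 3.50-fold, for H2-Eb1 to H2-DMb2, followed by 3.17-fold for Ciita to H2-DMb2. H2-Aa, H2-Ab1 and Cd74 had the highest counts of the members, whereas H2-Eb1 had 22.8 to 167 and H2-DMb2 29.3 to 154 normalized counts. Counting error weighs more on low counts, and its part in these ranges was not tested. Ratios to Cd207, which is not a member, ranged 1.89-fold for H2-Aa and 1.97-fold for Cd74, less than many member pairs. Over all libraries Ciita differed less between hair states than the other members, and the log2 ratio of H2-Aa to Ciita differed by -0.47, hair-high minus hair-low. Within genotypes this did not always hold. H2-DMa differed less than Ciita in WT (-1.05 against -1.18), and H2-DMb1 in C-IKKα (-0.46 against -0.57).

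**Figure D3:**
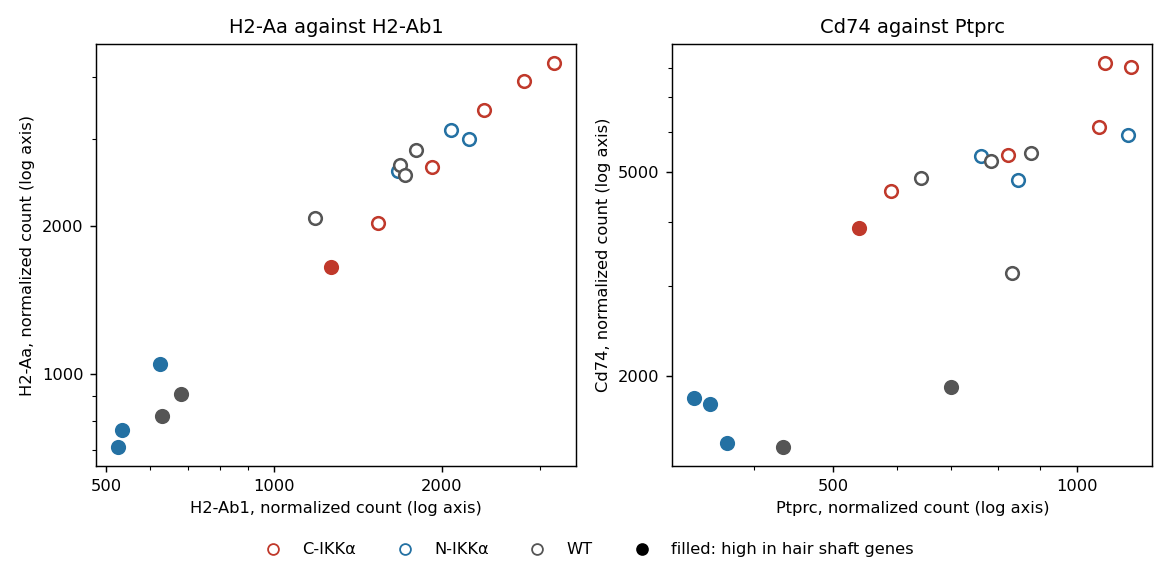
Left, H2-Aa against H2-Ab1, and right, Cd74 against the leukocyte marker Ptprc, in normalized counts on log axes, 1 point per library (red C-IKKα, blue N-IKKα, grey WT; filled points high in hair shaft genes). The H2-Aa and H2-Ab1 points lie along a line, with ratios of 1.30 to 1.75, whereas WT 1, at 699.5 counts of Ptprc, has 1902 of Cd74 and lies below all hair-low libraries.

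The spread within a hair state was smaller. Among the 12 hair-low libraries the members ranged from 1.71-fold (H2-DMa) to 2.69-fold (H2-Ab1), against 4.19-fold (H2-DMb1) to 7.07-fold (H2-Eb1) over all 18. C-IKKα 16 or 17 was the highest library for every detected member. The lowest was a hair-high N-IKKα or WT library in each case.

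Because the members moved together, the promoter letters of those in the RefSeq promoter table (build GRCm38.p6) are shown. The members H2-Aa, H2-Eb1, H2-DMa, H2-DMb1, H2-DMb2, H2-Oa and H2-Ob were matched by symbol, and a stretch is printed for each that held a motif. Ciita, Cd74 and H2-Ab1 are named only. Capitals mark the Y box core TGATTGG, an inverted CCAAT box bound by NF-Y, and the letters AACNNATGATG, which cover part of the X box bound by the RFX complex and CREB. The 70-base stretches run 5′ to 3′ on the strand of the gene. Their positions are chr17:34287857-34287926 for H2-Aa (minus strand), and on the plus strand chr17:34305753-34305822 for H2-Eb1, chr17:34153075-34153144 for H2-DMb1, chr17:34145104-34145173 for H2-DMb2, chr17:34238793-34238862 for H2-Ob and chr17:34092281-34092350 for H2-Oa.
H2-Eb1: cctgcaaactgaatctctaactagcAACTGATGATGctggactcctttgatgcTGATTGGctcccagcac
H2-DMb1: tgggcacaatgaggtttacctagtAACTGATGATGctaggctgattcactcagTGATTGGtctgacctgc
H2-DMb2: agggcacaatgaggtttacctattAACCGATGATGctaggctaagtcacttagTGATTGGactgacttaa
H2-Ob: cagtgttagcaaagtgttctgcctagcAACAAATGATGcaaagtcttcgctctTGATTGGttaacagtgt
H2-Aa: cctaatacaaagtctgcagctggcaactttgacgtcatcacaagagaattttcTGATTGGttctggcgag
H2-Oa: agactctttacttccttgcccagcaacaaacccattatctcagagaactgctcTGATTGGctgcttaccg

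In the first 4 stretches both motifs are present, and 15 to 18 bases separate them. TGATTGG began 45 to 92 bases before the annotated start in these 6 stretches. On either strand, TGATTGG was present in 7.82% and AACNNATGATG in 0.137% of 32851 promoter windows of the same length, and both in 9 windows, or 0.0274%. Those 9 belong to H2-DMb1, H2-DMb2, H2-Eb1, H2-Ob, Nubp2, Spsb3 and Gm38969, of which Nubp2 and Spsb3 have 2 each. The letters of the X box motif were chosen from the first 4 stretches, so its presence in them is a description. Of the 2 motifs searched, H2-Aa and H2-Oa held TGATTGG alone, and the 2 windows of H2-DMa held neither. Because of that choice, absence of these letters does not show that an X box is missing. Whether H2-Aa, H2-Oa or H2-DMa has an X box with other letters was not tested.

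The genotype comparisons asked whether IKKα in either compartment goes with another level of class II transcripts. With 6 mice per group and the hair states unequally spread (1 of 6 hair-high in C-IKKα, 3 in N-IKKα and 2 in WT), 0 of 9 members passed an adjusted p of 0.05 in any of the 3 comparisons. The test was limma on log2(normalized count + 1) with Benjamini-Hochberg adjustment over all 17667 genes, and fold changes are on that log2 scale. In no comparison did the libraries of the groups separate for any member.

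In C-IKKα against WT, all 9 members had a higher mean in C-IKKα, with a median log2 fold change of 0.57, against 0.00 over all genes. By limma 0.345% of all genes were called higher and 0.0% lower, and the groups did not overlap for 0.838% (higher) and 0.147% (lower). None of the 9 members reached an unadjusted p of 0.05 by limma, where 5.73% of all genes did, or by edgeR, where 6.1% did, and edgeR and DESeq2 called 0 members at an adjusted p of 0.05. With 1 library left out, 0 to 3 members reached an unadjusted p of 0.05 by limma, with 3 only without C-IKKα 14 or WT 3. Of all 17667 genes, 1095 and 1099 did so in those fits, against 1012 with all libraries.

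Cd74 had 3895, 5760.2 and 8167 normalized counts in C-IKKα (lowest, median and highest), against 1449.8, 4024 and 5461 in WT. The groups overlapped between 3895 and 5461, with WT 2, 3 and 6 above C-IKKα 14 and 15. The log2 fold change was 0.83 (SE 0.40, 95% interval -0.01 to 1.68, limma adjusted p = 0.883).

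H2-Aa had 1649.8, 3028 and 4274 in C-IKKα, against 821, 2305 and 2855 in WT, a log2 fold change of 0.68 (SE 0.43, limma adjusted p = 0.985). H2-Ab1 had 1267, 2153 and 3188 in C-IKKα, against 629, 1436 and 1797 in WT (log2 fold change 0.82, SE 0.41, limma adjusted p = 0.903). The 3 highest values of both chains were those of C-IKKα 16, 17 and 18, above every WT and N-IKKα library. The other 3 C-IKKα libraries lay among or below the hair-low WT libraries for H2-Aa.

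H2-Eb1 had 64.5, 127 and 167 normalized counts in C-IKKα, against 22.8, 87.5 and 126 in WT (log2 fold change 0.83, SE 0.44, limma adjusted p = 0.954). Ciita had 134, 179 and 285 in C-IKKα, against 66.5, 146 and 195 in WT (log2 fold change 0.57, SE 0.32, limma adjusted p = 0.960). For both genes the ranges overlapped. The 4 peptide-loading and editing genes had smaller differences, with log2 fold changes of 0.40 for H2-DMa, 0.47 for H2-DMb1, 0.44 for H2-DMb2 and 0.50 for H2-Ob.

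In N-IKKα against WT, all 9 members had a lower mean in N-IKKα, with a median log2 fold change of -0.18 and a range of -0.39 (H2-Eb1) to -0.04 (Ciita). By limma 0.00566% of genes were called higher and 0.0% lower, 4.14% had an unadjusted p under 0.05 and 0 members did, and the groups did not overlap for 0.0849% (higher) and 0.0396% (lower). Cd74 had 1481, 3319.6 and 5916 in N-IKKα, against 1449.8, 4024 and 5461 in WT, ranges that all but coincide. Its log2 fold change was -0.13 (SE 0.40, 95% interval -0.97 to 0.72, limma adjusted p = 0.949).

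The values of N-IKKα fell into clusters by hair state, as the plot of counts by library shows. Without the 6 hair-high libraries, 7 of 9 members had a higher mean in N-IKKα and the median was 0.14. The direction of this comparison turned when those libraries were left out, and no fit called a member.

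In C-IKKα against N-IKKα, all 9 members had a higher mean in C-IKKα, with a median log2 fold change of 0.83 against -0.01 over all genes. By limma 0.425% of genes were called higher and 0.00566% lower, with no overlap for 0.736% (higher) and 0.311% (lower). At an unadjusted p under 0.05 there were 4 of 9 members, against 11.7% of all genes: H2-Eb1, H2-Ab1, Cd74 and H2-DMa, with limma adjusted p values of 0.365, 0.408, 0.413 and 0.428. That count of 4 fell to 1 without C-IKKα 16 or 17 or N-IKKα 8, 9 or 11, and was 6 without C-IKKα 14 or WT 4, 8 without N-IKKα 7 or 12 and 9 without N-IKKα 10. The count over all 17667 genes moved alike, from 2059 to between 1143 and 1246 without N-IKKα 8, 9 or 11. It was 1563 and 1485 without C-IKKα 16 and 17, and 2371 and 2823 without C-IKKα 14 and WT 4. Without N-IKKα 7, 10 and 12 it was 3127, 3068 and 2986. By edgeR the member count was 1 of 9, against 12.6% of all genes. H2-Eb1 had the largest difference, 1.22 (SE 0.44), with 64.5, 127 and 167 normalized counts in C-IKKα against 25.2, 57.1 and 115 in N-IKKα. Both comparisons with C-IKKα share its libraries, as both comparisons with WT share those of WT.

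**Figure D4:**
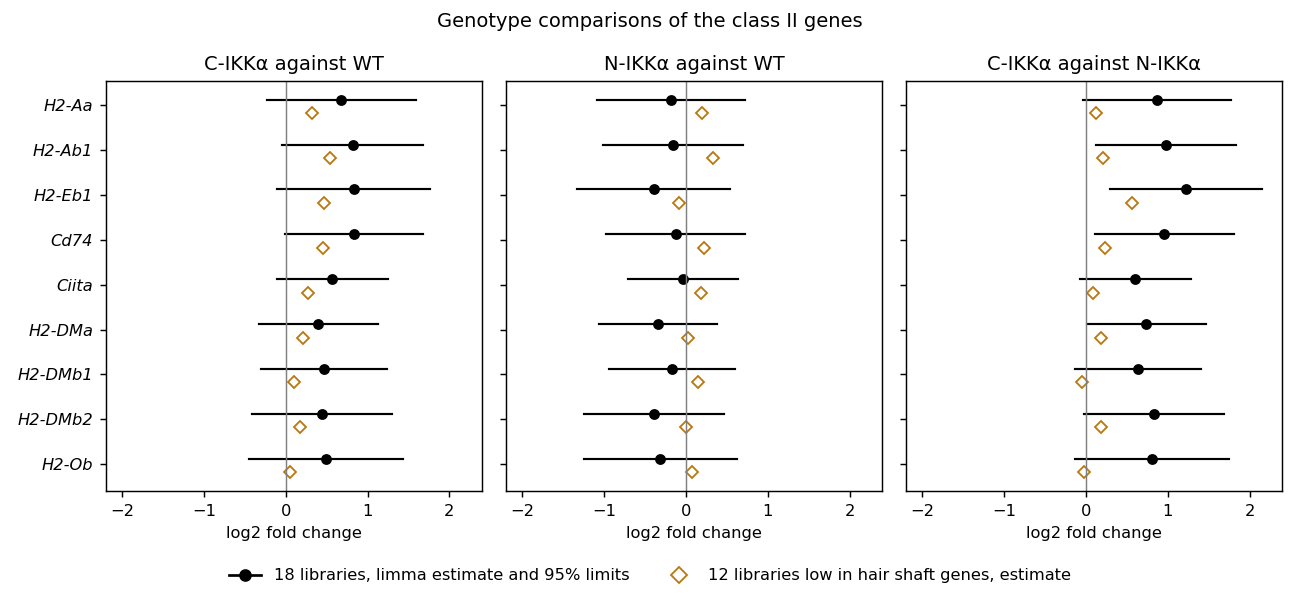
Log2 fold changes of the 9 detected class II genes in 3 comparisons; black points and bars are limma estimates with 95% limits from all 18 libraries, and open diamonds the estimates from the 12 libraries low in hair shaft genes. The diamonds lie closer to 0 than the points in the 2 comparisons with C-IKKα, and to the right of the points in N-IKKα against WT.

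The estimates for C-IKKα against WT shrank but kept their sign without the hair-high libraries. The median over the 9 members was then 0.27, 9 of 9 were positive, and 3 of 9 had an unadjusted p under 0.05, against 12.6% of all genes, with a smallest limma adjusted p of 0.256. With the hair list mean as a covariate the median was 0.44, 5 of 9 members had an unadjusted p under 0.05, against 9.37% of all genes, and the smallest limma adjusted p was 0.0826. With the mean of the pan-leukocyte markers as a covariate it was 0.35, and 2 of 9 had an unadjusted p under 0.05, against 6.87% of all genes. With the sex read from the libraries as a covariate it was 0.34, and 0 of 9 had an unadjusted p under 0.05, against 5.26% of all genes, with a smallest limma adjusted p of 0.9997. In C-IKKα 4 of 6 libraries read as male, against 2 of 6 in N-IKKα and 2 of 6 in WT. For C-IKKα against N-IKKα the medians were 0.18 without the hair-high libraries, where 7 of 9 were positive, 0.45 with the hair covariate, 0.25 with the leukocyte covariate and 0.59 with the sex covariate. Members with an unadjusted p under 0.05 numbered 1 of 9 without the hair-high libraries (6.91% of all genes), 6 with the hair covariate (10.9%), 0 with the leukocyte covariate (5.32%) and 1 with the sex covariate (7.31%). The summed pan-leukocyte markers were 1426 to 2603 normalized counts in C-IKKα, 770 to 2836 in N-IKKα and 870 to 2122 in WT, and their part in the members' values was not tested beyond that covariate.

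Beyond the members, 36 of 39 genes of the wider class II pathway were tested, in 7 lists. In C-IKKα against WT 1 rose and 0 fell, in N-IKKα against WT 0 rose and 0 fell, and in C-IKKα against N-IKKα 1 rose and 0 fell. The gene was Spib in both cases. Spib encodes an Ets transcription factor of B cells, plasmacytoid dendritic cells and epithelial M cells.

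Spib had 96.4, 245 and 474 normalized counts in C-IKKα (lowest, median and highest), against 4.81, 8.16 and 11.1 in WT and 3.13, 11.1 and 32.8 in N-IKKα. Every C-IKKα library lay above every other library. The log2 fold change was 4.67 (SE 0.49, limma adjusted p = 7.66e-05) against WT and 4.22 (SE 0.49, limma adjusted p = 0.00024) against N-IKKα. B cell markers were near their detection limit in the same libraries, with sums of 12.4 to 42.2 normalized counts in C-IKKα and Ms4a1 listed at 0. A listed 0 need not mean absence, as Tchh of the hair shaft and root sheath list was at 0 even in hair-high libraries. Which cells held the Spib transcript was not tested. Among the C-IKKα libraries Spib was highest in C-IKKα 16 and 17, at 474 and 393, where Cd74 was highest too. The order differed in the other libraries. Spib was lowest in C-IKKα 15, at 96.4, but Cd74 in C-IKKα 14, at 3895. C-IKKα 13 had more Spib than C-IKKα 18 (310 against 181) but less Cd74 (5399 against 6122).

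The list from interferon gamma to Ciita holds its receptor, the Jak kinases and Irf1 among others. Ifng itself was below the filter, with at most 8.55 normalized counts in any library. Of the 7 tested genes of this list 6 had a higher mean in C-IKKα than in WT, with a median log2 fold change of 0.31, and 4 had an unadjusted p under 0.05 by limma, against 5.73% of all genes. Over the 36 tested genes of all 7 lists, 8 had an unadjusted p under 0.05 in C-IKKα against WT, and 5 with the sex covariate. Irf1, a transcription factor that acts on the Ciita promoter, had 559, 847 and 984 normalized counts in C-IKKα, against 201, 377 and 460 in WT and 182, 318 and 533 in N-IKKα. Every C-IKKα library exceeded every WT and N-IKKα library. Its log2 fold change was 1.19 against WT (SE 0.30, limma adjusted p = 0.138) and 1.35 against N-IKKα (SE 0.30, limma adjusted p = 0.0520), which did not pass.

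Ciita, downstream of Irf1, differed less, at 0.57 and 0.60 on the same scale. Irf1 did pass in other fits: against WT by DESeq2, with the compared groups alone, without the hair-high libraries and with the hair or leukocyte covariate, and against N-IKKα by DESeq2, with a pseudocount of 5 and with the hair or leukocyte covariate. With the sex covariate it passed in neither comparison. Without the hair-high libraries Irf1 was 1.03 higher on the log2 scale in C-IKKα than in WT (limma adjusted p = 0.00338). Ifngr2, a chain of the interferon gamma receptor, differed by 0.31 against WT (SE 0.09, limma adjusted p = 0.318) and 0.40 against N-IKKα (SE 0.09, limma adjusted p = 0.0599). It passed against N-IKKα by DESeq2 and with the hair covariate, and Jak2, the kinase bound to it, passed against WT without the hair-high libraries, at 0.46.

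The factors that bind class II promoters did not follow the class II genes. The summed level of Rfx5, Rfxap, Rfxank, Nfya, Nfyb, Nfyc and Creb1 was 4107 to 5337 normalized counts in hair-high and 4152 to 4734 in hair-low libraries, and the median log2 difference between the states was -0.04. Rfx5, the largest RFX subunit, had 120 to 218 in hair-high and 127 to 216 in hair-low libraries. None of the 7 passed the limma test in any comparison, and 2 had a higher mean in C-IKKα than in WT.

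Genes of lysosomal processing were split. Ctss, the cathepsin that trims the invariant chain in antigen-presenting cells, was 1.86-fold lower in hair-high libraries, and Ifi30, a lysosomal thiol reductase, 1.67-fold lower. Within WT, Ctss was 1.17-fold lower and the states overlapped, as hair-high WT 1, at 879 normalized counts, exceeded every hair-low WT library. Ctsl and Ctsb, broadly expressed cathepsins, were 1.41 and 1.47 times their hair-low level. In C-IKKα against WT, 0 of 7 passed, and Ctsl had a log2 fold change of -0.44 (SE 0.20, limma adjusted p = 0.836).

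Genes of class II turnover and T cell costimulation were lower in hair-high libraries in 3 of 3 and 4 of 5 cases. Cd40, a costimulatory receptor of antigen-presenting cells, had 48.1, 93.9 and 118 normalized counts in C-IKKα, against 17.1, 55.7 and 69.5 in WT (log2 fold change 0.81, SE 0.36, limma adjusted p = 0.827). Cd83, which stabilizes class II at the surface, had 167, 226 and 336 in C-IKKα, against 53.7, 153 and 215 in WT (log2 fold change 0.77, SE 0.33, limma adjusted p = 0.782). Both ranges overlapped. Cd4, the co-receptor that binds class II, was 2.84-fold lower in hair-high than in hair-low libraries.

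The genes whose pattern was most like that of the class II set were ranked by Pearson r with the mean log2 level of H2-Aa, H2-Ab1, H2-Eb1 and Cd74 over the 12 hair-low libraries. These values are a description, over libraries that share genotypes and scaling. Itgal, the alpha chain of the leukocyte integrin LFA-1, came first with r = 0.954. It was followed by Defb6, a beta-defensin (0.928), Endod1 (0.912), H2-M3, a nonclassical class I gene that presents formylated peptides (0.907), Rhbdd1 (0.907), Rbms3 (0.902), Glb1l (0.900), Coro2a (0.900), Rasal3 (0.895) and Rab32 (0.895).

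Of the members outside that mean, Ciita had r = 0.792, H2-DMa 0.774, H2-DMb1 0.702, H2-Ob 0.643 and H2-DMb2 0.313. Itgal and H2-M3 were also lower in hair-high than in hair-low libraries, with differences of -1.03 and -1.80 on the log2 scale. Endod1 and Rhbdd1 differed by -0.049 and -0.076 between hair states, and over the 6 hair-high libraries their r with the class II mean was -0.13 and -0.55.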

How the data were processed

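Back skin RNA was sequenced as stranded mRNA libraries with paired-end reads, per the labels' protocols, and counted with featureCounts on GRCm39, per the submitters' processing notes. For the aligner, annotation release, strand setting and scaling tool, details are not given in the sources used here. As deposited by the authors, the signal is a normalized count for each gene in each library. Within 0.001 reads, 100% of the values above 0 were multiples of a step that is constant within a library, so counts divided by 1 size factor were inferred and reads recovered. No pair of libraries were copies (smallest chi-square per gene 5.61).

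From these, limma 3.58.1 (R 4.3.3; moderated variance with trend, two-sided) compared log2(normalized count + 1) in 1 fit of 18 libraries, over 17667 genes with at least 10 in at least 6 libraries, at a Benjamini-Hochberg adjusted p of 0.05. edgeR 4.0.16 and DESeq2 1.42.0 were run on recovered reads as alternatives, with other pseudocounts, filters, scalings, covariates and sample sets. The scripts were tested on simulated data. The members, lists, hair state limit and named-gene rule were chosen with earlier results of these data known. Named are all members, called pathway genes or else the 2 with the smallest p per list and comparison, and the 10 genes most like the set; others named were chosen after their values were seen. Of the pathway lists, 1 gene is not reported here and was left out of their counts. Exon lengths and overlaps came from GENCODE M21 (52081 of 55357 identifiers matched), and promoters from RefSeq. No sample column was left unmapped. Each library is 1 mouse per the labels.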

Additional observations from a re-analysis of the deposited data

Results flagged for a closer look

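Groups of 6 libraries were checked for a lone library far from the others, over 42 genes and 126 groups, and chance alone flags about 1 in 20 groups. No class II member was flagged, and 4 other values were. Cd80 in WT 1 was the highest of its group at 236 normalized counts, against 142 to 166 in the other WT libraries. Jak1 in WT 4 was the lowest of its group at 1317 normalized counts, where the other WT libraries had at least 2090. Ctsd in C-IKKα 16 was the lowest of its group at 191 normalized counts, against 239 to 255 in the other C-IKKα libraries. Endod1 in N-IKKα 9 was the lowest of its group at 1399.5 normalized counts, against 2016 to 2302 in the other N-IKKα libraries. WT 1, WT 4 and N-IKKα 9 are hair-high libraries.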

How the results depend on the processing

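No class II member passed in any comparison under any alternative run, with smallest adjusted p values of 0.0826 (C-IKKα against WT), 0.402 (N-IKKα against WT) and 0.0649 (C-IKKα against N-IKKα). In C-IKKα against WT, 279 of 279 alternative member values kept their sign (0.05 to 1.01). In N-IKKα against WT 33 of 279 turned positive. These were, without the hair-high libraries, H2-Aa 0.20, H2-Ab1 0.33, Cd74 0.22, Ciita 0.19, H2-DMa 0.029, H2-DMb1 0.14 and H2-Ob 0.073. With the hair covariate they were H2-Aa 0.0436, H2-Ab1 0.049, Cd74 0.084, Ciita 0.12 and H2-DMb1 0.014, and with the leukocyte covariate 0.13, 0.14, 0.17, 0.17 and 0.090. With 1 library left out, Cd74 ran from -0.36 to 0.077, Ciita from -0.22 to 0.099, H2-Aa from -0.40 to 0.041, H2-Ab1 from -0.38 to 0.040 and H2-DMb1 from -0.38 to 0.011. In C-IKKα against N-IKKα, H2-DMb1 (-0.049) and H2-Ob (-0.023) turned negative without the hair-high libraries. The cause was not tested.

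Counts over all genes moved. In C-IKKα against WT, 61 calls became 38 with a filter of 50, 151 with DESeq2, 163 without the hair-high libraries, 165 with the hair covariate and 33 to 73 with 1 library left out. In C-IKKα against N-IKKα, 76 became 47 with that filter, 188 with DESeq2, 159 with the hair covariate, 51 without the hair-high libraries and 39 to 103 with 1 library left out. In N-IKKα against WT, 1 call became 0 with a filter of 50 or the compared groups alone, 2 without a filter, with DESeq2 or without the hair-high libraries, and 1 to 2 with 1 library left out. Pathway calls in C-IKKα against WT went from 1 to 2 with DESeq2, the compared groups alone or the hair or leukocyte covariate, stayed at 1 with the sex covariate, and came to 3 without the hair-high libraries. In C-IKKα against N-IKKα they went from 1 to 2 with a pseudocount of 5 or the leukocyte covariate, to 3 with DESeq2 or the hair covariate, and to between 1 and 3 with 1 library left out. No paired analysis was possible because the groups share no replicate number. Sex and hair state come from the libraries, and all hair-high libraries read as female.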

Other observations

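H2-Eb2, the second I-E beta chain gene of the locus, had between 0 and 13.9 normalized counts and stayed below the filter. Per kilobase its median over the 12 hair-low libraries was 1.44 normalized counts, against 60.1 for H2-Eb1. It was listed at 0 in WT 4 and 5 and in N-IKKα 8, 9 and 11, of which 4 are hair-high libraries. The sums of 4 plasmacytoid dendritic cell markers (Siglech, Tcf4, Bst2 and Ly6d) were 5041 to 7152 normalized counts in C-IKKα, 4835 to 6462 in N-IKKα and 5268 to 6670 in WT, so the groups overlapped. Tcf4 (3394 to 4756) and Ly6d (978 to 2391) dominated these sums, over Siglech (11.2 to 140) and Bst2 (33.1 to 191). All 4 had a higher mean in C-IKKα than in either other group, and 0 were called. By limma 1 had an unadjusted p under 0.05 against WT (5.73% of all genes) and 2 against N-IKKα (11.7%).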
